A study of Mus musculus with 6 samples.

Results

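The 10 genes studied here belong to variant Polycomb repressive complex 1 (PRC1), and their RNA was measured by RNA-seq in epidermal cells of newborn mice. They are *Pcgf1*, *Kdm2b*, *Bcor* and *Bcorl1* of the PRC1.1 complex, *Pcgf3* and *Pcgf5* of PRC1.3 and PRC1.5, *Pcgf6* and *L3mbtl2* of PRC1.6, and *Rybp* and *Yaf2*, which all variant complexes share. The members were chosen by gene name, and each of the 10 was found once among the 38258 genes of the deposited table. All 10 passed the filter on low values (a mean of at least 10 normalized counts over the 6 libraries), which left 23006 genes for testing.

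The libraries fall into 3 labelled Eed -/- Ring1a-/- Ring1b-/- and 3 labelled control, all from epidermis at postnatal day 0. Cells of the back skin were sorted as EpCAM positive, Sca1 positive and high for α6-integrin, which enriches progenitors of the interfollicular epidermis. The control genotype, the means of deletion and whether a library came from 1 animal or several are unstated in the sources used here. The comparison asks how these cells differ when PRC2, through *Eed*, and PRC1, through *Ring1* (Ring1a) and *Rnf2* (Ring1b), are disrupted together.

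All PRC1 complexes carry a Ring1a or Ring1b ubiquitin ligase paired with a PCGF protein, and together they add ubiquitin to histone H2A. Canonical complexes hold a CBX protein that reads the methylation placed by PRC2, together with PCGF2 or BMI1. Variant complexes hold RYBP or YAF2 instead, reach chromatin without PRC2, and are known from mouse embryonic stem cells to place most of the H2A ubiquitin. KDM2B brings PRC1.1 to unmethylated CpG islands through its zinc finger, and MGA, MAX, E2F6 and L3MBTL2 bring PRC1.6 to genes that include many of the germline.

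Because KDM2B binds unmethylated CpG, promoters are shown for the 3 members that passed the test and had an entry, and for *L3mbtl2*, which did not pass. They are RefSeq sequences of GRCm38.p6, 250 bases before to 50 after the start, read 5′ to 3′ on the gene's strand, with CpG in capitals. Of the 10 members, 7 had an entry.
Bcor promoter (chrX:12160297-12160596, minus strand): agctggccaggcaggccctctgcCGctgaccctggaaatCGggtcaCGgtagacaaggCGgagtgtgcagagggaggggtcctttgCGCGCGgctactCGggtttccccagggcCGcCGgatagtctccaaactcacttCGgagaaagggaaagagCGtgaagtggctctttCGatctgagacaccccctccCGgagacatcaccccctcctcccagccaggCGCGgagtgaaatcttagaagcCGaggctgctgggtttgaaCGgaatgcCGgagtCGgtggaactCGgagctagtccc
Bcorl1 promoter (chrX:48341108-48341407, plus strand): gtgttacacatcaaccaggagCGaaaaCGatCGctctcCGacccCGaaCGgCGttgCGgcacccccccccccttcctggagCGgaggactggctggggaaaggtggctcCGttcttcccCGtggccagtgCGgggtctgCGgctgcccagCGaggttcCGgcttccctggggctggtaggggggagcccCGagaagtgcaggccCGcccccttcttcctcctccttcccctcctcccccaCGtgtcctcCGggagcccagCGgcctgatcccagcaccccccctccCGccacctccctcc
Pcgf6 promoter (chr19:47050857-47051156, minus strand): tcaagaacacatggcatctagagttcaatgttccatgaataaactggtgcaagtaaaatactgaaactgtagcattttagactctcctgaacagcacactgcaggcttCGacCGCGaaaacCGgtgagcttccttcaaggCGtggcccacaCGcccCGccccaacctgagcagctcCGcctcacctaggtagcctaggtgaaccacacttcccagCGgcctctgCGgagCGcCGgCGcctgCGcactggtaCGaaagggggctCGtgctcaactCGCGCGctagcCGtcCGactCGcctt
L3mbtl2 promoter (chr15:81663639-81663938, plus strand): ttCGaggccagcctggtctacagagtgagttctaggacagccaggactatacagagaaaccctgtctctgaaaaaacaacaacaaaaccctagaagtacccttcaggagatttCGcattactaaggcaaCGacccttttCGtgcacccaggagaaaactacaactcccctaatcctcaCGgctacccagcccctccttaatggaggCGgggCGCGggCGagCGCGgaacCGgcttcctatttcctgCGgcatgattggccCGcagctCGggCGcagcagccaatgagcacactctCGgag

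The *Bcor* and *Bcorl1* promoters each held 21 CpG, that of *Pcgf6* 22 and that of *L3mbtl2* 17. The median over 32851 mouse promoters of the same length was 7. The promoters of *Bcor* and *Bcorl1* had more CpG than 75.2% of them, that of *Pcgf6* more than 76.9% and that of *L3mbtl2* more than 68.6%. Of the genes that did not pass, *Pcgf3* had 23 CpG and one *Kdm2b* start had 49, more than in 99% of promoters. That *Kdm2b* start (chr5:122900301-122900600, minus strand) lies inside the gene. The other *Kdm2b* starts had 18, 28 and 47 CpG, and the *Pcgf5* starts had 5, 34 and 35. A gene's normalized count sums all its transcripts, so the starts could not be told apart.

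Library depth, the targeted genes and cell markers bear on what follows. The deposited normalized counts summed to 23269000 to 26995443 in the libraries labelled triple knockout and 21896285 to 29805729 in controls. These sums are of scaled values and do not measure depth. The worth of 1 read (the most frequent low value of a library) is smaller in a deeper library. It was 0.887, 1.06 and 0.716 normalized counts in the libraries labelled triple knockout and 1.31, 1.09 and 1 in controls. Labelled knockout 3 was thus the deepest library and control 1 the shallowest. *Ring1* went against the labels, with 67.7, 104 and 112 normalized counts in the libraries labelled triple knockout, against 11.8, 8.72 and 23.1 in controls. *Eed* had 381, 604 and 441 in the libraries labelled triple knockout, against 714, 1015 and 778 in controls (log2 change −0.82 ± 0.21, limma adjusted p = 0.0144). *Rnf2* read 783, 922 and 694 in the libraries labelled triple knockout and 739, 875 and 1288 in controls (limma adjusted p = 0.417). The deleted exons are not stated in the sources used, and RNA of exons left in place checks nothing. Every direction below is therefore that of the libraries labelled triple knockout. When labelled knockout 1, labelled knockout 3 or control 2 was left out, the *Eed* call was lost (limma adjusted p = 0.0615, 0.0543 and 0.0523). Epidermal markers were present in all libraries, with 6 of 8 basal markers lower by limma and 2 higher. The genes of the sort moved too: *Epcam* averaged 3258 ± 123 in the libraries labelled triple knockout and 1788 ± 542 in controls, *Ly6a* (Sca1) 1393 ± 120 and 173 ± 64, and *Itga6* (α6-integrin) 7670 ± 212 and 23785 ± 5486 (limma adjusted p = 0.00578, 2.64e-05 and 1.33e-04). Of 7 fibroblast markers 1, *Postn*, fell and 6 did not pass. Their summed level was 9965 to 15700 in the libraries labelled triple knockout and 21879 to 49754 in controls, with the highest in control 3. Without *Postn* the sums overlapped, at 9336 to 14559 in the libraries labelled triple knockout and 8090 to 30213 in controls. All 5 melanocyte markers rose, summing to 895 to 1204 in the libraries labelled triple knockout and 256 to 384 in controls. Of 4 Merkel cell markers 3 were tested and rose. Those 3, *Krt20*, *Isl1* and *Sox2*, averaged 4.17, 2.8 and 0.799 in controls. They passed the filter on low values only through the libraries labelled triple knockout. *Atoh1* was too low to test, at 0 in each library labelled triple knockout and 0, 0 and 3.02 in controls. Of 4 Schwann cell markers 2 rose, and none of 5 endothelial and 5 tested leukocyte markers passed. The 2 Schwann cell genes, *Sox10* and *Foxd3*, averaged 3.94 and 2.11 in controls. The melanocyte genes *Tyrp1* and *Mlana* averaged 6.9 and 2.06 there. These genes too passed the filter only through the libraries labelled triple knockout, so such counts of risen markers are no measure of the cell types. Of 3 tested erythroid markers 1, *Alas2*, fell, and of 2 tested muscle markers none passed. The part of these cell types in the results was not tested.

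Of the 10 variant PRC1 genes, 5 were higher in the libraries labelled triple knockout. By limma with Benjamini-Hochberg adjustment over all genes, *Bcorl1*, *Bcor*, *Pcgf6*, *Rybp* and *Yaf2* rose, and none of the 10 fell (1 was lower at an unadjusted p below 0.05). Of all genes tested 20.5% rose and 15.3% fell. The median log2 change was 0.60 for the 10 members and 0.01 for all genes tested. The members that rose lie in PRC1.1 (2 of 4), in PRC1.6 (1 of 2) and among the shared subunits (2 of 2), and neither PCGF gene of PRC1.3 and PRC1.5 passed. For 4 of the 10 every library labelled triple knockout lay above every control, and for 1 below, as for 26% and 23% of all genes. Each log2 change is the labelled triple knockout mean less the control mean of log2(normalized count + 1), ± SE, and levels are normalized counts as mean ± SD (n = 3 per group). In sorted bulk cells, fewer cells of a type and less RNA per cell cannot be told apart.

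**Figure D1:**
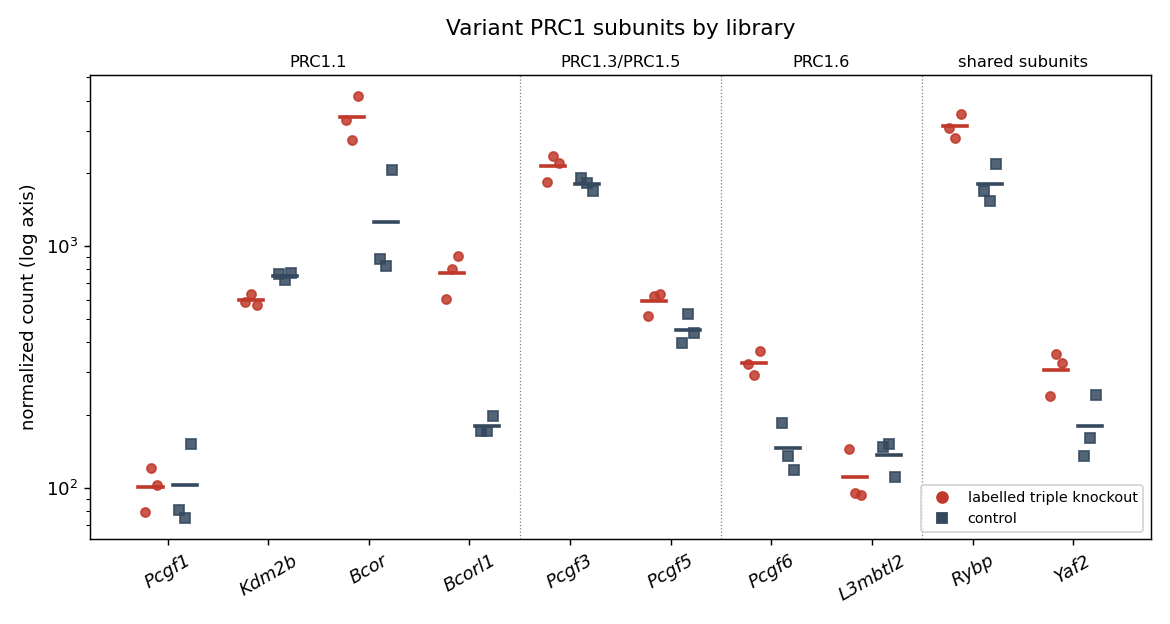
Normalized counts (log axis) of the 10 genes in each library, grouped by complex, with the 3 libraries labelled triple knockout as circles left of the 3 controls as squares and bars at group means. For *Bcor*, *Bcorl1*, *Pcgf6* and *Rybp* all circles lie above all squares, and for *Kdm2b* all circles lie below.

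In PRC1.1 the corepressors moved and the RING-finger subunit did not pass. *Bcorl1* (ENSMUSG00000036959.15, GRCm38 chrX:48341358-48408049, plus strand) encodes a BCOR-like corepressor. It had 601, 800 and 913 normalized counts in the libraries labelled triple knockout, against 172, 172 and 197 in controls. The lowest library labelled triple knockout was over 3 times the highest control, and the log2 change was 2.07 ± 0.20, or 4.21-fold (limma adjusted p = 6.21e-05). This was the largest change among the 10 genes, at percentile 91.7 of the log2 changes of all genes tested. *Bcor* (ENSMUSG00000040363.15, chrX:12036740-12160355, minus strand), the BCL6 corepressor that bridges PCGF1 to KDM2B, had 3337, 2759 and 4182 in the libraries labelled triple knockout, against 881, 825 and 2065 in controls. The groups did not overlap, but control 3 lay far above controls 1 and 2. That library was also highest for the summed fibroblast, endothelial, leukocyte and erythroid markers. It was highest too for ribosomal RNA, mitochondrial included (36.6% of its normalized count, against 22.5% to 31.4% in the other libraries). The log2 change was 1.56 ± 0.32, or 2.95-fold (limma adjusted p = 0.00498), and it was 1.98 without control replicate 3 (limma adjusted p = 6.98e-06). Both genes lie on the X chromosome.

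*Kdm2b* (ENSMUSG00000029475.17, chr5:122870665-122989823, minus strand), the CpG-binding histone demethylase, had 587, 631 and 571 in the libraries labelled triple knockout, against 764, 726 and 774 in controls. All 3 libraries labelled triple knockout were below all controls, but the change of −0.34 ± 0.14 did not pass (limma adjusted p = 0.0821, 95% interval −0.65 to −0.03). It passed after quantile normalization (log2 change −0.43, limma adjusted p = 0.0311) and once spline fits on GC content and length had been subtracted (−0.60, limma adjusted p = 0.016). The longest *Kdm2b* transcript shares 627 bases with *Rnf34* on the opposite strand, so reads there could be assigned to either gene. *Pcgf1* (ENSMUSG00000069678.10, chr6:83077869-83080855, plus strand), the RING-finger protein specific to PRC1.1, had 78.9, 121 and 103 in the libraries labelled triple knockout, against 81.1, 75.0 and 151 in controls. The groups overlapped, and the log2 change of 0.03 ± 0.31 had a 95% interval from −0.67 to 0.74 (limma adjusted p = 0.952), wide enough to hold a 1.5-fold change in either direction. A near-identical copy, *Gm8930*, matches 764 bases of the longest coding *Pcgf1* transcript at 97.5% identity. It averaged 0.943 normalized counts, and reads of the matching stretch could be assigned to either gene.

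Of PRC1.1 partner genes, *Usp7*, a deubiquitinase found with the complex, fell. It had 2483, 2538 and 2536 in the libraries labelled triple knockout, against 4148, 4742 and 4031 in controls (log2 change −0.77 ± 0.12, limma adjusted p = 0.00104). The adaptor gene *Skp1a*, which binds the F-box of KDM2B, averaged 2685 ± 57.5 in the libraries labelled triple knockout and 2360 ± 595 in controls (limma adjusted p = 0.375, and 0.0173 without control replicate 3).

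In PRC1.3 and PRC1.5, neither *Pcgf3* nor *Pcgf5*, whose products are paralogs that can replace each other, passed the test. *Pcgf3* (ENSMUSG00000033623.13, chr5:108461232-108506976, plus strand) had 1844, 2359 and 2211 in the libraries labelled triple knockout, against 1919, 1826 and 1697 in controls. The groups overlapped, with a log2 change of 0.23 ± 0.14 (limma adjusted p = 0.228, 95% interval −0.08 to 0.54). *Pcgf5* (ENSMUSG00000024805.16, chr19:36348309-36460970, plus strand) had 513, 624 and 634 in the libraries labelled triple knockout, against 395, 521 and 436 in controls. Only the highest control reached into the other group's range, and the log2 change was 0.39 ± 0.17 (limma adjusted p = 0.109, 95% interval 0.00 to 0.78).

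Of 7 partner genes of these complexes 1 rose and 6 did not pass. *Dcaf7*, a WD-repeat scaffold gene, averaged 3694 ± 300 in the libraries labelled triple knockout and 2718 ± 268 in controls (log2 change 0.44 ± 0.13, limma adjusted p = 0.026). That call was lost when labelled knockout 2 or 3 (limma adjusted p = 0.085 and 0.105) or control 1 or 2 (0.0559 and 0.0772) was left out, and the change was 0.27 (0.135) with GC content and length regressed out. *Auts2*, which links PRC1.3 and PRC1.5 to gene activation in the mouse brain, averaged 4353 ± 134 in the libraries labelled triple knockout and 4258 ± 99.7 in controls (limma adjusted p = 0.852). The remaining genes, *Fbrs* and *Fbrsl1*, relatives of *Auts2*, and the casein kinase subunits *Csnk2a1*, *Csnk2a2* and *Csnk2b*, had log2 changes between 0.01 and 0.52.

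In PRC1.6 the RING-finger subunit rose and the reader protein did not pass. *Pcgf6* (ENSMUSG00000025050.7, chr19:47033619-47050845, minus strand) had 324, 292 and 366 in the libraries labelled triple knockout, against 186, 135 and 118 in controls. The groups did not overlap, and the log2 change was 1.17 ± 0.22, or 2.26-fold (limma adjusted p = 0.00289). *L3mbtl2* (ENSMUSG00000022394.14, chr15:81663889-81688315, plus strand), which encodes an MBT-domain protein of PRC1.6, had 144, 94.7 and 93.2 in the libraries labelled triple knockout, against 147, 151 and 111 in controls. Labelled knockout 1 lay among the controls, and the log2 change of −0.32 ± 0.25 did not pass (limma adjusted p = 0.364, 95% interval −0.88 to 0.25). *Chadl* overlaps it on the opposite strand by 10020 bases of the genome, introns included. The longest coding *L3mbtl2* transcript shared no stretch of at least 200 bases at 95% identity with *Chadl* transcripts. Shorter stretches and other *L3mbtl2* transcripts were not searched.

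Of 9 partner genes of PRC1.6, 3 rose and 6 did not pass. *Max*, the dimerization partner of MGA and MYC, had 2565, 2992 and 2692 in the libraries labelled triple knockout, against 1428, 1462 and 1818 in controls (log2 change 0.81 ± 0.14, limma adjusted p = 0.00195). *Mga*, the scaffold that binds DNA with MAX, had 4478, 4142 and 4444 in the libraries labelled triple knockout, against 5802, 4781 and 3859 in controls (limma adjusted p = 0.573). The deacetylase genes *Hdac1* and *Hdac2*, which also serve many other complexes, had log2 changes of 0.53 ± 0.17 and 0.42 ± 0.13 (limma adjusted p = 0.0335 and 0.0303). Without control replicate 1 or 2 the *Hdac1* call was lost (limma adjusted p = 0.0977 and 0.102), as it was without labelled knockout replicate 1, 2 or 3 (0.0757, 0.0929 and 0.109). For *Hdac2* it was lost when labelled knockout 1 or 2 (limma adjusted p = 0.0978 and 0.126) or control 1 or 2 (0.073 and 0.054) was left out, and the change was 0.71 with GC content and length regressed out. *Cbx3*, a heterochromatin protein gene with several processed copies, averaged 2322 ± 143 in the libraries labelled triple knockout and 3115 ± 647 in controls (limma adjusted p = 0.0849, and 0.0224 without control replicate 2). *E2f6*, *Tfdp1*, *Wdr5* and *Cbx1* had log2 changes between −0.39 and 0.37 and did not pass. Their groups did not overlap, with *E2f6* higher and *Tfdp1*, *Wdr5* and *Cbx1* lower in the libraries labelled triple knockout. Groups did not overlap for 49.1% of all genes tested.

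Over all complexes, 4 of the 18 partner genes rose and 1 of them fell, set beside the 20.5% and 15.3% of all genes. Their median log2 change was 0.12. For 5 partner genes every library labelled triple knockout lay above every control, and for 5 below, as for 26% and 23% of all genes. Without single libraries the number that rose was 1 (without labelled knockout replicate 2, control replicate 1 or control replicate 2), 2 (without labelled knockout replicate 1 or 3) or 7 (without control replicate 3). The number that fell was 2 without control replicate 2 and 3 without control replicate 3.

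**Figure D2:**
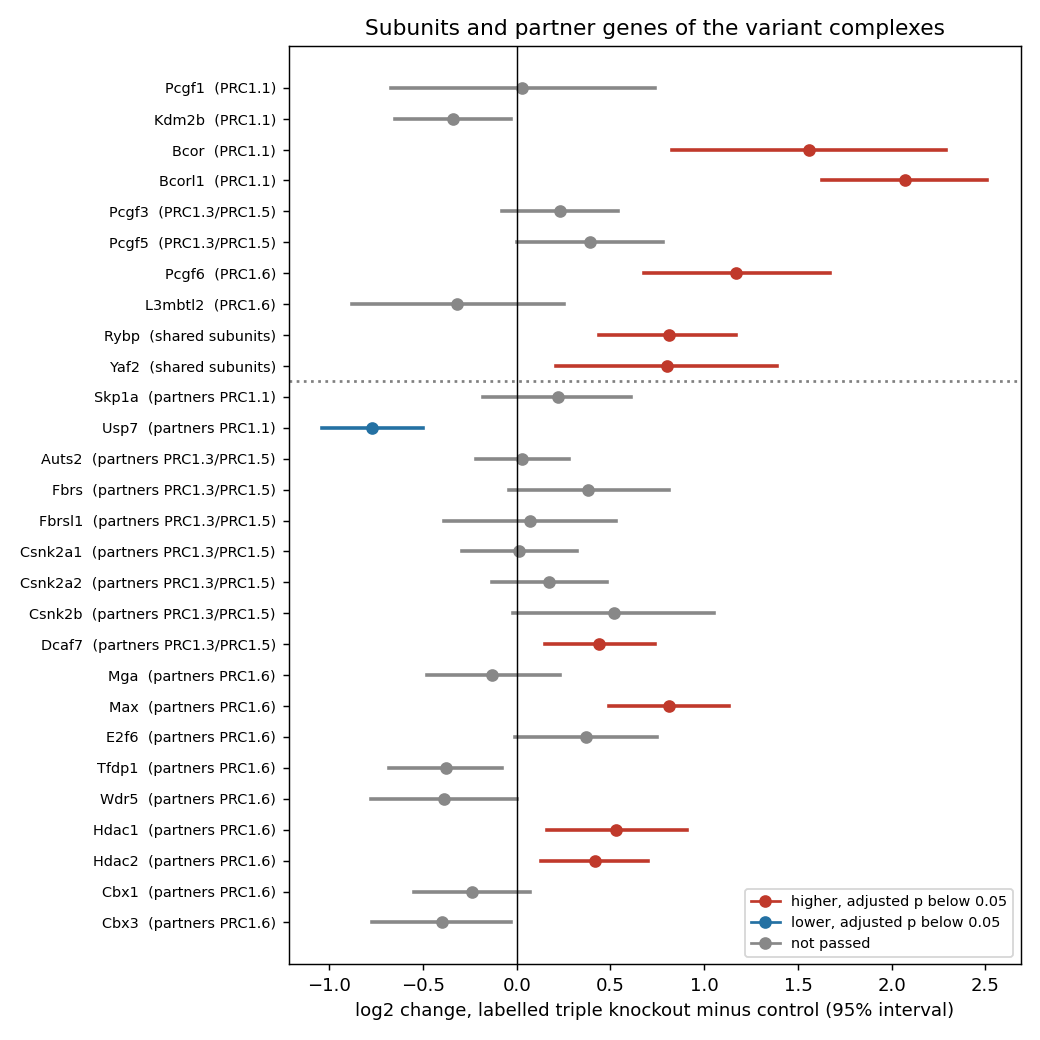
Log2 change (labelled triple knockout minus control, limma) with its 95% interval for the 10 subunits above the dotted line and 18 partner genes below it, coloured by call. The largest changes are those of *Bcorl1* (2.07), *Bcor* (1.56) and *Pcgf6* (1.17), and *Usp7* (−0.77) is the only gene that fell.

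The shared subunits rose together. *Rybp* (ENSMUSG00000072872.3, chr6:100228565-100287485, minus strand), which encodes the zinc-finger protein that takes the place of CBX in variant complexes, had 3079, 2807 and 3519 in the libraries labelled triple knockout, against 1695, 1534 and 2179 in controls. The groups did not overlap, and the log2 change was 0.81 ± 0.16, or 1.75-fold (limma adjusted p = 0.0042). A processed copy, *Rybp-ps*, matches 681 bases of the transcript at 99.3% identity, so some reads could have come from it. *Yaf2* (ENSMUSG00000022634.9, chr15:93284278-93336935, minus strand), its paralog, had 240, 356 and 328 in the libraries labelled triple knockout, against 135, 161 and 242 in controls. Control 3 just exceeded labelled knockout 1, and the log2 change was 0.80 ± 0.26, or 1.74-fold (limma adjusted p = 0.0384). The *Yaf2* call was lost when labelled knockout 2 or 3 (limma adjusted p = 0.138 and 0.118) or control 1 or 2 (0.121 and 0.0981) was left out. It was also lost after quantile normalization (limma adjusted p = 0.0845) and without both the mean-variance trend and robust estimation (0.0712).

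Levels of different genes were compared per kilobase of the longest coding transcript, on a scale that ignores which transcripts were used. *Rybp* was highest in both groups, with 696 ± 79.8 normalized counts per kilobase in the libraries labelled triple knockout and 400 ± 74.6 in controls. In the libraries labelled triple knockout *Bcor* came next at 494 ± 103, then *Pcgf3* at 277 ± 34.4 and *Yaf2* at 184 ± 36. These 4 genes did not overlap one another. *Yaf2* overlapped *Pcgf6* (152 ± 17.2), and *Kdm2b* (115 ± 5.96), *Pcgf1* (110 ± 23), *Bcorl1* (104 ± 21.2) and *Pcgf5* (91.6 ± 10.4) each overlapped the next. *L3mbtl2* was lowest at 31.7 ± 8.27. In controls *Pcgf3* stood second at 235 ± 14.5, and it overlapped *Bcor* at 181 ± 101. Then came *Kdm2b* at 146 ± 4.88, *Pcgf1* at 112 ± 46, *Yaf2* at 107 ± 33.3, *Pcgf5* at 70 ± 10 and *Pcgf6* at 67.9 ± 16.4, each overlapping the next. *Bcorl1* was lowest there, at 24.2 ± 1.96, below *L3mbtl2* at 39.1 ± 6.19 with no overlap.

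The PCGF protein names the complex, so the 6 PCGF genes were set against each other within each library, which removes the scaling between libraries. *Pcgf6* made up 12.2%, 9.35% and 11.6% of their summed level per kilobase in the libraries labelled triple knockout, against 7.42%, 5.38% and 4.5% in controls. *Pcgf2*, of canonical PRC1, made up 33.3%, 31.8% and 35.2%, against 47.6%, 49.8% and 41.8% in controls. *Bmi1*, the other canonical PCGF gene, made up 21.5%, 21.8% and 19.1%, against 10.7%, 10.4% and 16.6% in controls. For these 3 genes the groups did not overlap in share, whereas the shares of *Pcgf1*, *Pcgf3* and *Pcgf5* overlapped. Shares are relative, so the share of a gene can fall because others rise. The level of *Pcgf2* itself overlapped between groups and did not pass (log2 change −0.25 ± 0.14, limma adjusted p = 0.197). *Bmi1* rose (0.97 ± 0.21, limma adjusted p = 0.00628). In single-gene levels, groups did not overlap for 49.1% of all genes tested. The 4 variant genes together held 45.8% ± 0.602 in the libraries labelled triple knockout and 41% ± 1.07 in controls (SD, n = 3).

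**Figure D3:**
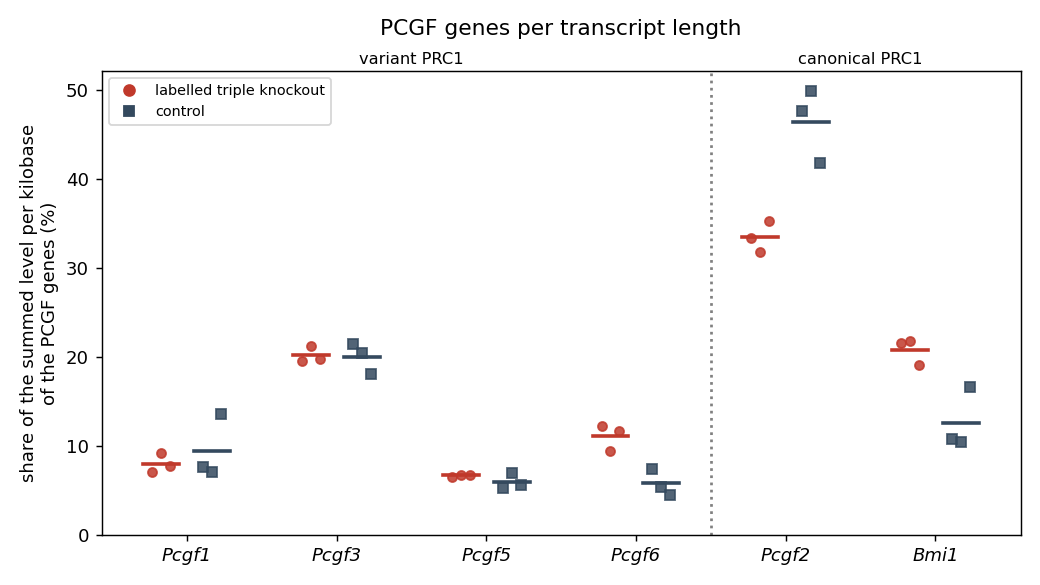
Share (percent) of each PCGF gene in the summed normalized count per kilobase of the 6 PCGF genes of a library, with libraries labelled triple knockout as circles left of controls as squares and bars at group means. *Pcgf6* and *Bmi1* have higher shares and *Pcgf2* has lower ones in all 3 libraries labelled triple knockout than in any control.

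Pairs of related or partner genes were compared as a log2 ratio of normalized counts within each library. The 6 pairs were tested with an exact two-sided permutation test, whose smallest p with 3 against 3 libraries is 0.1, so that no pair could pass. The *Rybp* to *Yaf2* log2 ratio was 3.36 ± 0.35 in the libraries labelled triple knockout and 3.35 ± 0.26 in controls (exact p = 1). The *Pcgf3* to *Pcgf5* log2 ratio was 1.85 ± 0.06 in the libraries labelled triple knockout and 2.01 ± 0.24 in controls (exact p = 0.3). The *Bcor* to *Bcorl1* log2 ratio was 2.15 ± 0.34 in the libraries labelled triple knockout and 2.66 ± 0.62 in controls (exact p = 0.4), with 3.38 in control 3.

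For 3 of the 6 pairs the groups did not overlap, each with exact p = 0.1 (0.2 adjusted over the 6 pairs). Groups did not overlap for 49.1% of all single genes tested, and the share over other gene pairs was not computed. The *Pcgf1* to *Pcgf6* log2 ratio was −2.02, −1.26 and −1.82 in the libraries labelled triple knockout, against −1.19, −0.84 and 0.35 in controls. The *Max* to *Mga* log2 ratio was −0.80, −0.47 and −0.72 in the libraries labelled triple knockout, against −2.02, −1.71 and −1.09 in controls. The *Kdm2b* to *Kdm2a* log2 ratio was −3.17, −3.13 and −3.22 in the libraries labelled triple knockout, against −2.62, −2.94 and −2.80 in controls. *Kdm2a*, the paralog that also binds CpG but is not a PRC1 subunit, had a log2 change of 0.05 ± 0.12 (limma adjusted p = 0.785).

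**Figure D4:**
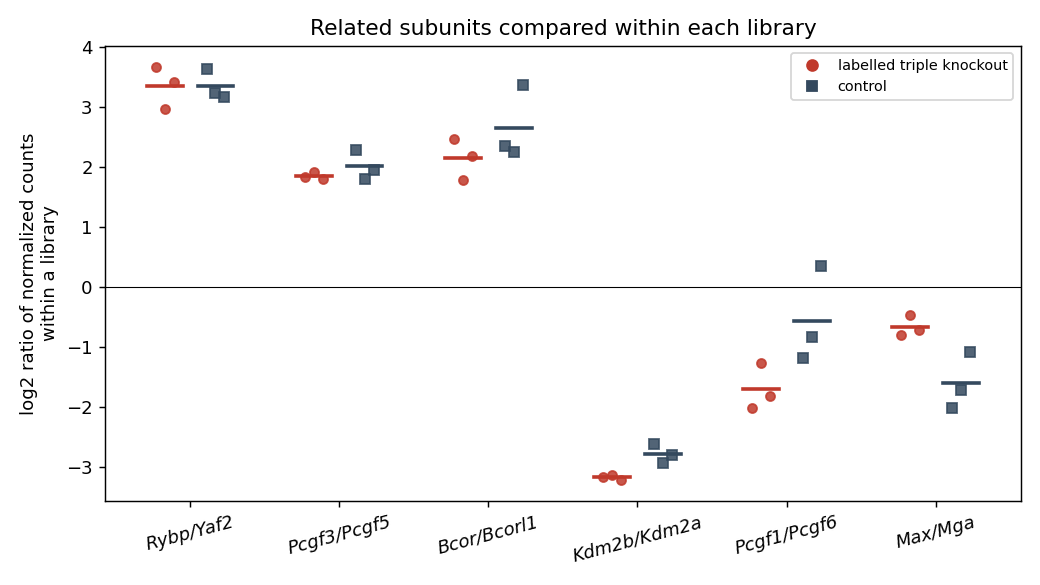
Log2 ratio of normalized counts of 2 genes within each library for 6 pairs, with libraries labelled triple knockout as circles left of controls as squares and bars at group means. The groups do not overlap for *Kdm2b*/*Kdm2a*, *Pcgf1*/*Pcgf6* and *Max*/*Mga*, and they overlap for the other pairs.

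PRC1.6 is known from mouse embryonic stem cells to silence genes of germ cells, many through E-box or E2F-type sites, and 13 such genes were listed. Only 5 of the 13 passed the filter, and 3 of these rose and 0 fell by limma (0 at an unadjusted p below 0.05), where 20.5% of all genes tested rose and 15.3% fell. A gene near 0 in controls passes the filter only where the other group is high, so this count is no measure of all 13. *Smc1b*, *Tdrkh* and *Taf7l* averaged 5.85, 3.45 and 6.8 in controls and passed it in that way. The filter thus favoured a rise of these genes, and their single tests carry the same limit. *Zcwpw1*, a histone reader of meiotic recombination, had 284, 266 and 398 in the libraries labelled triple knockout, against 136, 154 and 138 in controls (log2 change 1.12 ± 0.21, limma adjusted p = 0.00289), and it shares 470 transcript bases with *Pilra*. *Smc1b*, a meiotic cohesin gene, had 15.2, 29.4 and 47.4 in the libraries labelled triple knockout, against 2.1, 2.32 and 13.1 in controls (limma adjusted p = 0.0221). That call was lost when labelled knockout 2 or 3 (limma adjusted p = 0.077 and 0.107) or control 1 or 2 (0.0615 and 0.0651) was left out. *Tdrkh*, a piRNA pathway gene, had 58.3, 22.1 and 38.1 in the libraries labelled triple knockout, and was listed at 0, 10.3 and 0 in controls (limma adjusted p = 0.00861, lost at 0.0505 when labelled knockout 1 was left out). It shares 2255 bases with *Oaz3* on the opposite strand.

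*Stag3*, another meiotic cohesin gene, had 96.6, 56.5 and 102 in the libraries labelled triple knockout, against 69.7, 16 and 40.9 in controls (limma adjusted p = 0.094, 0.0251 without control replicate 1 and 0.0267 with the replicate number as a block). *Taf7l* averaged 14.9 ± 6.41 in the libraries labelled triple knockout and 6.8 ± 5.35 in controls (limma adjusted p = 0.192). The other 8 genes, among them the germ cell helicase gene *Ddx4* and the RNA-binding protein gene *Dazl*, had means over the 6 libraries of 0.386 to 4.47.

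Sites are shown for the tested germline genes that held one, from RefSeq promoters of GRCm38.p6 on the gene's strand, with the motif in capitals. The letters searched were CACGTG, an E-box, and GCGGGAA, an E2F-type site, both on either strand (TTCCCGC is the reverse complement).
Stag3 (chr5:138280329-138280354, plus strand, 170 bases before the start): cgctggagccCACGTGacaggactgc
Stag3 (chr5:138280496-138280522, plus strand, 3 bases before the start): atcccgtgccTTCCCGCgtttttttct
Taf7l (chrX:134476524-134476549, minus strand, 49 bases before the start): cctcttatacCACGTGacagaactcg
Smc1b (chr15:85131989-85132015, minus strand, 48 bases before the start): aaagaatttcTTCCCGCgctttttttt

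CACGTG was found in promoters of 8 of the 13 germline genes and GCGGGAA in those of 6, where 7.15% and 4.6% of all 32851 promoters held them. The 13 were listed as genes of a kind known for such sites, so a larger share among them follows from the choice. A germline gene was counted where any of its promoters held the motif, whereas the background counts single promoters. The promoters of *Zcwpw1* and *Tdrkh*, which rose, held neither motif, and *Stag3*, which did not pass, held both. Among the variant PRC1 genes CACGTG was found in the *Bcorl1* promoter and GCGGGAA in one of *Pcgf5*.

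The genes most like *Bcorl1* over the 6 libraries were sought by the Euclidean distance between log2 values centred on each gene's mean. They were *Kdelr3* at a distance of 0.18, *Tmem159* at 0.23 and *Zfp623* at 0.26, where the median over all genes tested was 2.76. These genes were picked for the smallest distances, so lying below the median follows from the choice. Their log2 changes of 2.05, 1.94 and 2.17 were near that of *Bcorl1*, and a shared regulation was not tested. *Kdelr3* averaged 277 ± 43.6 in the libraries labelled triple knockout and 66.2 ± 10.5 in controls.

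Other Polycomb genes that were not targeted gave the following counts. By limma, 6 of 11 canonical PRC1 genes rose and 1 of them fell, and their median log2 change was 0.57. Of 10 PRC2 genes 1 rose and 5 others fell, and the median was −0.41. Of all genes tested, 20.5% were called higher and 15.3% lower, and the median was 0.01. The differences between these lists were not tested.

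**Figure D5:**
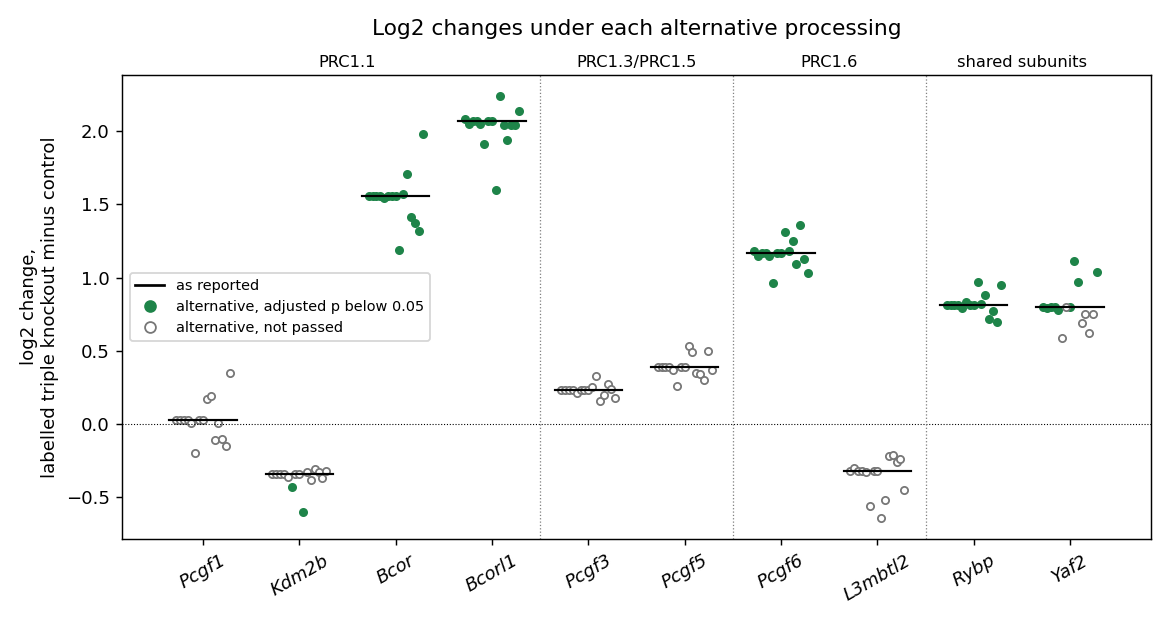
Log2 change (labelled triple knockout minus control) of each of the 10 genes as reported (line) and under 15 alternatives (points), filled where the limma adjusted p was below 0.05. *Bcor*, *Bcorl1*, *Pcgf6* and *Rybp* passed under all 15, *Yaf2* under 9 and *Kdm2b* under 2.

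Directions held under the 15 alternatives for 9 of the 10 genes, and that of *Pcgf1* did not. The log2 change of *Bcorl1* ranged from 1.6 to 2.24, of *Bcor* from 1.19 to 1.98, of *Pcgf6* from 0.96 to 1.36 and of *Rybp* from 0.70 to 0.97.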

How the data were processed

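RNA of sorted newborn epidermal cells was reverse transcribed, amplified and sequenced as 100-nucleotide single reads, per the labels' protocols. Per the file headers, the deposited values are normalized counts, treated here as a signal and not as raw counts. Kallisto 0.42.5 and DESeq2 were used, per the submitters' processing notes; annotation, options and strand setting are not given in the sources used here. The worth of 1 read, taken as the most frequent low value of a library, was 0.716 to 1.31 normalized counts. Only 25.9% to 42.6% of values under 20 reads were whole to within 0.01 of a read, so no count model or counting interval is given. Of 38258 genes, 37652 (98.4%) had the coordinates of GENCODE M21, from which the build, GRCm38, is named.

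A pseudocount of 1 was added and log2 taken. Genes averaging at least 10 entered limma 3.58.1 (R 4.3.3, trend, robust empirical Bayes, no covariate), adjusted over all 23006 genes at a threshold of 0.05. Alternatives were other pseudocounts, filters and scalings (quantile, or trimmed-mean factors that drop 0.3 of the log ratios and 0.05 of the mean levels at each end). Others were limma without trend or robust estimation, a replicate block, removal of GC content and transcript length by splines, and leaving out each library. The labels number replicates but do not say that they are separate animals, so p-values measure the spread between libraries, which may be technical. Copies were sought with blastn 2.17.0 (at least 200 bases at 95% identity). The members and lists were chosen with earlier results of these data known. Named genes are the members, the targets, called and highest uncalled genes of the partner and germline lists, pair partners, and the 3 genes nearest to *Bcorl1*; the canonical PRC1 and PRC2 lists are given as counts.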

Additional observations from a re-analysis of the deposited data

How the results depend on the processing

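Quantile normalization shifted the log2 changes of single genes by a median of −0.23 over all genes, gave a median log2 change of −0.17 against 0.01 as reported, and called 4177 higher and 4974 lower genes (45.6% of calls higher, against 57.3% as reported). Under it 1 variant PRC1 gene fell, as 1 did after GC content and length were regressed out, *Kdm2b* in both. The variant PRC1 genes that rose numbered 4 without trend or robust estimation and 4 to 5 with single libraries left out. The partner genes that rose numbered 1 without trend or robust estimation, and 1 to 7 when single libraries were left out. Those that fell numbered 2 with a mean of at least 50 or trimmed-mean factors, 3 with quantile normalization or with GC content and length regressed out, and 1 to 3 when single libraries were left out. Of the germline genes 1 rose with a mean of at least 50, where fewer were tested. The *Pcgf1* log2 change was −0.20 with quantile normalization, and −0.15 to 0.35 with single libraries left out (below 0 without labelled knockout replicate 2 or control replicate 1 or 2). The *Rybp* to *Yaf2* log2 ratio difference of 0.01 ranged from −0.15 to 0.20 in the same way (below 0 without labelled knockout replicate 1 or 3 or control replicate 2 or 3). *Rnf2* (0.09), *Auts2* (−0.37, limma adjusted p = 0.038) and *Kdm2a* (−0.11) changed sign with GC content and length regressed out, and *Mga* and *Kdm2a* without control replicate 1 (ranges over single libraries left out −0.28 to 0.02 and −0.03 to 0.10). The cause of these moves was not tested.

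Same-numbered libraries did not deviate together, with correlations of 0.06, −0.02 and 0.02, against −0.09 to 0.07 for differently numbered ones. These values cannot tell whether the libraries were paired by design. With the replicate block 4761 genes rose and 3345 fell, and 5 variant PRC1 genes rose and 0 fell. Genes at a few normalized counts, as most germline genes were, rest on a handful of reads.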

Other observations

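Other annotated genes overlap *Rybp* and *L3mbtl2*. The unclassified transcripts *Gm44045* and *Gm44044*, inside *Rybp* on the same strand, averaged 184 ± 16.5 and 121 ± 15.7 normalized counts in the libraries labelled triple knockout, and 170 ± 43.4 and 135 ± 21.6 in controls. Their log2 changes of 0.14 ± 0.23 and −0.15 ± 0.22 did not pass (limma adjusted p = 0.678 and 0.635), while *Rybp* rose. *Chadl*, a gene on the opposite strand that overlaps *L3mbtl2* by 10020 bases, had 49.4, 50.4 and 45.8 in the libraries labelled triple knockout, against 14.5, 8.37 and 10.3 in controls. Its log2 change was 2.07 ± 0.33 (limma adjusted p = 0.0013), where that of *L3mbtl2* was −0.32 ± 0.25. Where strand was not used in counting, reads of 2 overlapping genes cannot be told apart.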
